A study of Mus musculus with 12 samples.

Results

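The costimulatory TNF superfamily and CD28 family genes of T cells were followed in naive CD8+ T cells that were stimulated through CD3 while the inhibitory receptor LAIR-1 was ligated. They comprised 10 of the 14323 genes counted and were taken by their symbols, with earlier results of these data known. The TNF superfamily receptors were Tnfrsf4 (OX40), Tnfrsf9 (4-1BB), Tnfrsf18 (GITR), Tnfrsf1b (TNFR2) and Cd27. The ligands were Tnfsf8 (CD30L), Tnfsf11 (RANKL) and Tnfsf14 (LIGHT), and the CD28 family receptors were Cd28 and Icos. Naive CD8+ T cells were sorted by flow cytometry from the spleens of 3 adult wild type C57BL/6N mice, and 100000 cells were cultured for 6 h in wells coated with antibodies. The 4 conditions were unstimulated isotype (isotype in place of both antibodies), unstimulated anti-LAIR-1 (2.5 µg/ml of the agonistic clone 2C7), anti-CD3 isotype (2.5 µg/ml of an anti-CD3ε antibody) and anti-CD3 anti-LAIR-1 (both). Each mouse gave 1 library per condition, 12 in all, so a mouse number marks the same animal in each condition. No CD28 antibody was named in the culture description.

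T cell receptor signalling is weighed together with costimulatory signals. CD28 is present on naive T cells, binds CD80 and CD86 and recruits PI3 kinase and other proteins that promote IL-2 production and survival, and ICOS is its inducible relative. The TNF receptor superfamily members bind trimeric ligands and recruit TRAF adaptors that feed NF-κB and survival pathways. CD27 and GITR are already present on resting T cells, whereas 4-1BB and OX40 are best known as receptors induced by activation. CD30L, RANKL and LIGHT are ligands that activated T cells display or release.

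In mm10 coordinates with the GENCODE annotation, 5 of the members lie on chromosome 4. Tnfrsf4 (chr4:156013843-156016612, plus strand) and Tnfrsf18 (chr4:156026164-156028895, plus) are direct neighbours 9551 bases apart, Tnfrsf9 lies at chr4:150914562-150946102 (plus), Tnfrsf1b at chr4:145213463-145246870 (minus) and Tnfsf8 at chr4:63831308-63861347 (minus). Cd28 (chr1:60716800-60773359, plus) and Icos (chr1:60977927-61000320, plus) flank Ctla4 on chromosome 1. Cd27 lies at chr6:125232622-125237010 (minus), Tnfsf11 at chr14:78277445-78308043 (minus) and Tnfsf14 at chr17:57189492-57194177 (minus). Tnfrsf9 overlaps Camta1, Tnfrsf18 overlaps Gm16008 and Cd27 overlaps Vamp1, each on the opposite strand. Whether the counting used strand was not given, so reads of these pairs cannot be told apart. On the same strand, Icos overlaps Gm37039 and Cd27 overlaps Mir8113.

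RefSeq promoter windows (GRCm38.p6, the 250 bases before a listed start) were found for 8 of the 10 members, not for Cd28 and Icos. They were searched on both strands for 3 motifs of factors downstream of T cell receptor and TNF receptor signals. These were AP-1 (TGANTCA, in 6.87% of 27018 windows), NF-κB (GGG, any 5 bases and CC, in 45.4%) and NFAT (GGAAA, in 55.6%). The 27018 windows were those of the first listed start of each gene, so the second start of Tnfrsf9 was not among them. The windows printed, with capitals at every match, are both starts of Tnfrsf9 and the start of Tnfsf14, the receptor and the ligand with the largest increases below, that of Tnfsf11, which fell with anti-LAIR-1, and that of Tnfrsf18, which fell with anti-CD3.
Tnfrsf9, first start, chr4:150919905-150920154 (plus): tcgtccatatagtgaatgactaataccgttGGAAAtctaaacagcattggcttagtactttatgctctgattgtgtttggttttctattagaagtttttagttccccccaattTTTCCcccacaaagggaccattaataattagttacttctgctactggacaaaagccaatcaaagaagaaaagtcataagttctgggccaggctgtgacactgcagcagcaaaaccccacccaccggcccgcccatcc
Tnfrsf9, second start, chr4:150927749-150927998 (plus): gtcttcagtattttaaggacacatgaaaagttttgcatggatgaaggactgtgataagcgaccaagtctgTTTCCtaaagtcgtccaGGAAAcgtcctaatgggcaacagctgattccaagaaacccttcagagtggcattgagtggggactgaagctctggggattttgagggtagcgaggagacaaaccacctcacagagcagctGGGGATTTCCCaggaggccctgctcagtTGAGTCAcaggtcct
Tnfsf14, chr17:57194182-57194431 (minus): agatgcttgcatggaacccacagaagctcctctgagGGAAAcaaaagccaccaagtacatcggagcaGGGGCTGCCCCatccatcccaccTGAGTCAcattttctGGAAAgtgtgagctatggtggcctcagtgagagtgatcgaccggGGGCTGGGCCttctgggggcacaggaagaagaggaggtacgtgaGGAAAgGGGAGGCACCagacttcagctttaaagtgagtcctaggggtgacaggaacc
Tnfsf11, chr14:78308044-78308293 (minus): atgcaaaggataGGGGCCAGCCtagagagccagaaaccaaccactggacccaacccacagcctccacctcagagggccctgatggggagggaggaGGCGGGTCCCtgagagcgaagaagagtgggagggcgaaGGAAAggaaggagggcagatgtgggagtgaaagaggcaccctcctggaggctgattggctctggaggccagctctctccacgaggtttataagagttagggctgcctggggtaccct
Tnfrsf18, chr4:156026072-156026321 (plus): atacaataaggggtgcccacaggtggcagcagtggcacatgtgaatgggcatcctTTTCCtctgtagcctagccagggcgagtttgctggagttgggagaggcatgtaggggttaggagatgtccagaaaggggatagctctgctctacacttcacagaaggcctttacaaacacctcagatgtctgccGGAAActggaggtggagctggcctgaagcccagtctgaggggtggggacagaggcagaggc
An AP-1 match was present in the second Tnfrsf9 window, with its first base at -15 from the start, and in the Tnfsf14 window at -160. The second Tnfrsf9 window also held NF-κB matches at -43 and -42, which share bases with each other and with the NFAT match at -38, and the first held NFAT matches alone. The Tnfsf14 window had 4 NF-κB and 3 NFAT matches, the Tnfsf11 window 2 NF-κB matches and 1 NFAT match, and the Tnfrsf18 window 2 NFAT matches. The windows not printed held no AP-1 match. Tnfrsf1b had 3 NF-κB matches, Cd27 had 2 NF-κB matches and 1 NFAT match, and Tnfrsf4 and Tnfsf8 had 1 NFAT match each. The Tnfrsf18 window reaches into the gene as annotated by GENCODE, and both Tnfrsf9 windows lie inside theirs. For 7 of the 9 promoter entries of members, the bases after the listed start lay in a GENCODE transcript. All matches describe letters in the windows and no binding was measured.

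Library totals were 1781218 to 2957929 counts in unstimulated isotype, 3547294 to 3589194 in unstimulated anti-LAIR-1, 3478294 to 6555730 in anti-CD3 isotype and 4889990 to 7725545 in anti-CD3 anti-LAIR-1 cells. The early activation genes Cd69 and Nr4a1 were higher in every anti-CD3 library than in every unstimulated one. Cd3e and the other CD8 T cell markers were present throughout, Cd4 averaged at most 0.704 CPM in a condition, and the B cell, myeloid and erythroid marker lists each summed to at most 19.8 CPM and the dendritic cell list, mostly Bst2, to 21.4 CPM. Mitochondrial genes took 17.6% to 20.9% of the counts in unstimulated and 11.5% to 13.2% in anti-CD3 libraries. Lair1 itself had 0 to 7 counts per library and could not serve as a check of the anti-LAIR-1 label. Levels below are CPM, each count divided by its library's total and scaled by the trimmed mean of M values (TMM) over the 12 libraries, listed in the order mouse 1, 2, 3, and differences are log2 fold changes from quasi-likelihood tests in edgeR, with p-values Benjamini-Hochberg adjusted over every gene tested and called at an adjusted p under 0.05. In bulk RNA, fewer cells with a transcript and less of it per cell cannot be told apart.

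Anti-CD3 raised most of these genes within 6 h. With isotype, 8 of 10 members passed the test, 7 higher and 1 lower, in a comparison in which 71.3% of 8690 genes passed (35.3% higher, 36.1% lower). The median log2 fold change was 1.22 over the members and -0.03 over all genes tested. With anti-LAIR-1 present in both arms, 9 of 10 passed, 8 higher and 1 lower, against 72.7% of 9000 genes (36.4% higher, 36.3% lower), with medians of 1.40 and -0.04. The stimulated and unstimulated libraries did not overlap for 8 of 10 members with isotype and for 9 of 10 with anti-LAIR-1, as for 73.4% and 74.7% of all genes tested. Marker sums moved with anti-CD3 too, that of 8 CD8 T cell genes from 4364 to 4966 CPM in unstimulated to 2392 to 3176 CPM in anti-CD3 libraries, that of 6 naive T cell genes from 3506 to 3937 CPM to 411 to 709 CPM, and that of the NK cell list, almost wholly Nkg7, from 38.0 to 55.5 CPM to 104 to 175 CPM. The part of these levels in the anti-CD3 results was not tested. Tnfsf11 and Tnfsf14 entered these tests through the stimulated libraries alone, because they were at or near 0 without anti-CD3. Both are part of the counts and medians of the members above, and their anti-CD3 differences are given below as lower bounds or a count ratio. Together, the 10 genes took 0.0843% to 0.0992% of all counts in unstimulated libraries and 0.245% to 0.263% in anti-CD3 libraries.

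**Figure D1:**
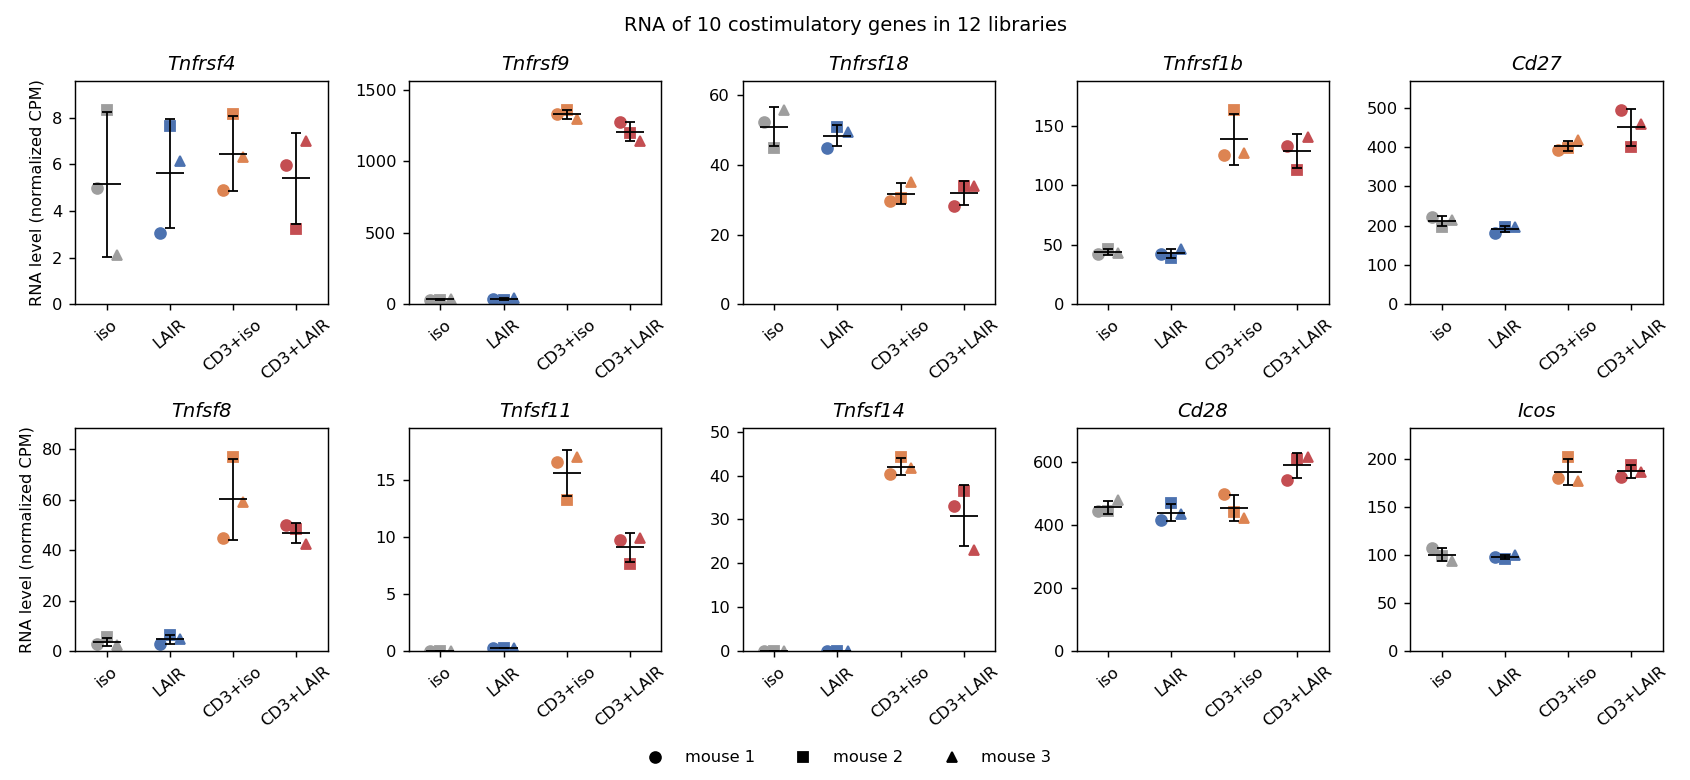
RNA level of the 10 genes (y axis, TMM-normalized CPM, from 0) in each of 12 libraries, by condition (iso: unstimulated isotype; LAIR: unstimulated anti-LAIR-1; CD3+iso and CD3+LAIR: anti-CD3 with isotype or anti-LAIR-1). Marker shapes are mice, bars the mean and SD of 3 libraries; Tnfrsf9, Tnfrsf1b, Cd27, Icos and the 3 ligands are higher in every anti-CD3 library, Tnfrsf18 is lower, and Cd28 is highest in the 3 CD3+LAIR libraries.

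Among the receptors, Tnfrsf9 increased most. It measured 30.5, 31.3 and 38.4 CPM in unstimulated isotype cells and 1330.2, 1359 and 1298 CPM in anti-CD3 isotype cells. All stimulated libraries lay far above all unstimulated ones, with a log2 fold change of 5.25 (SE 0.11, adjusted p = 8.5e-21), and with anti-LAIR-1 it was 5.06 (SE 0.12, adjusted p = 7.0e-17). The gene went from a mean of 3.69% of the members' counts in unstimulated isotype cells to 49.8% in anti-CD3 isotype cells, while Cd28 went from 50.5% to 17.0%.

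Tnfrsf1b, the TNF receptor that lacks a death domain, measured 41.8, 46.4 and 43.1 CPM in unstimulated isotype and 126, 163 and 127 CPM in anti-CD3 isotype cells. It rose without overlap of the libraries (log2 fold change 1.59, SE 0.13, adjusted p = 2.3e-10), and by 1.58 (SE 0.11) with anti-LAIR-1. Cd27 rose from 223, 197 and 213 CPM to 392, 397 and 417 CPM (log2 fold change 0.85, SE 0.09, adjusted p = 1.3e-08). In the presence of anti-LAIR-1, the Cd27 difference was 1.22 (SE 0.09), from 181, 196 and 196 CPM to 494, 399.6 and 457 CPM, again without overlap.

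Tnfrsf18 was the single member that fell. Its level was 52.4, 44.8 and 55.7 CPM in unstimulated isotype and 29.5, 30.4 and 35.1 CPM in anti-CD3 isotype cells, a log2 fold change of -0.75 (SE 0.15, adjusted p = 0.00011). With anti-LAIR-1 it was -0.62 (SE 0.13, adjusted p = 0.00023), and no stimulated library reached the lowest unstimulated one. A regulatory and CD4 T cell marker list, mostly Ikzf2, moved the same way, from 21.9 to 52.2 CPM in unstimulated libraries to 8.15 to 13.8 CPM in anti-CD3 libraries, with Foxp3 at a mean of at most 2.02 CPM, and its part in the Tnfrsf18 result was not tested. The neighbouring gene Tnfrsf4 was sparse, with 4 to 44 counts per library and levels of 2.10 to 8.32 CPM over the 12 libraries. All 4 conditions overlapped for Tnfrsf4, and the anti-CD3 difference was 0.22 with isotype (95% interval -0.57 to 1.02) and -0.09 with anti-LAIR-1 (-0.83 to 0.65), intervals that at this depth still allow sizeable differences in either direction.

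All 3 ligands rose from low levels. Tnfsf14 had 0 counts in each of the 6 unstimulated libraries and 131, 206 and 257 counts (40.3, 44.2 and 41.6 CPM) in anti-CD3 isotype cells. Set against a floor of 3 counts over the unstimulated group, it was at least 104-fold higher with isotype and at least 117-fold higher with anti-LAIR-1. Tnfsf11 had 0 counts in the 3 unstimulated isotype libraries. It had 54, 62 and 105 counts (16.6, 13.3 and 17.0 CPM) in anti-CD3 isotype cells, at least 38.9-fold higher. With anti-LAIR-1, 1 count per unstimulated library stood against 72, 45 and 47 counts, a ratio of 33.9 after scaling (95% counting interval 11.4 to 166). The floors and this interval cover counting error alone.

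Tnfsf8, the ligand of CD30, measured 2.99, 5.55 and 2.63 CPM in unstimulated isotype and 44.9, 76.8 and 58.9 CPM in anti-CD3 isotype cells. Its log2 fold change was 3.92 with isotype (SE 0.27, adjusted p = 8.1e-12) and 3.26 with anti-LAIR-1 (SE 0.20, adjusted p = 3.1e-11), both without overlap. The unstimulated isotype libraries had only 9, 14 and 5 counts of Tnfsf8. In the isotype comparison it therefore passed the filter on low counts through the stimulated libraries. Mouse 2 was the highest of the 3 mice for Tnfsf8 in unstimulated isotype, unstimulated anti-LAIR-1 and anti-CD3 isotype cells.

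The CD28 family pair parted. Icos rose from 108, 99.1 and 94.1 CPM to 180.4, 202 and 177 CPM with isotype (log2 fold change 0.81, SE 0.11, adjusted p = 3.3e-07) and by 0.91 (SE 0.08) with anti-LAIR-1. Cd28 was already at 445, 445 and 480.0 CPM in unstimulated isotype cells and stood at 499, 440.4 and 423 CPM after anti-CD3, with overlapping libraries and a log2 fold change of -0.09 (95% interval -0.27 to 0.10, adjusted p = 0.398). The call for Cd28 depended on scaling: with upper quartile factors, which moved the median of all genes to -0.20, it was -0.26 (adjusted p = 0.0135). With anti-LAIR-1 in both arms, Cd28 rose from 416, 469 and 435 CPM to 543, 609.8 and 615 CPM, by 0.40 (SE 0.08, adjusted p = 9.2e-05). The isotype and anti-LAIR-1 versions of the anti-CD3 effect share no library, and their difference was tested as the interaction below.

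**Figure D2:**
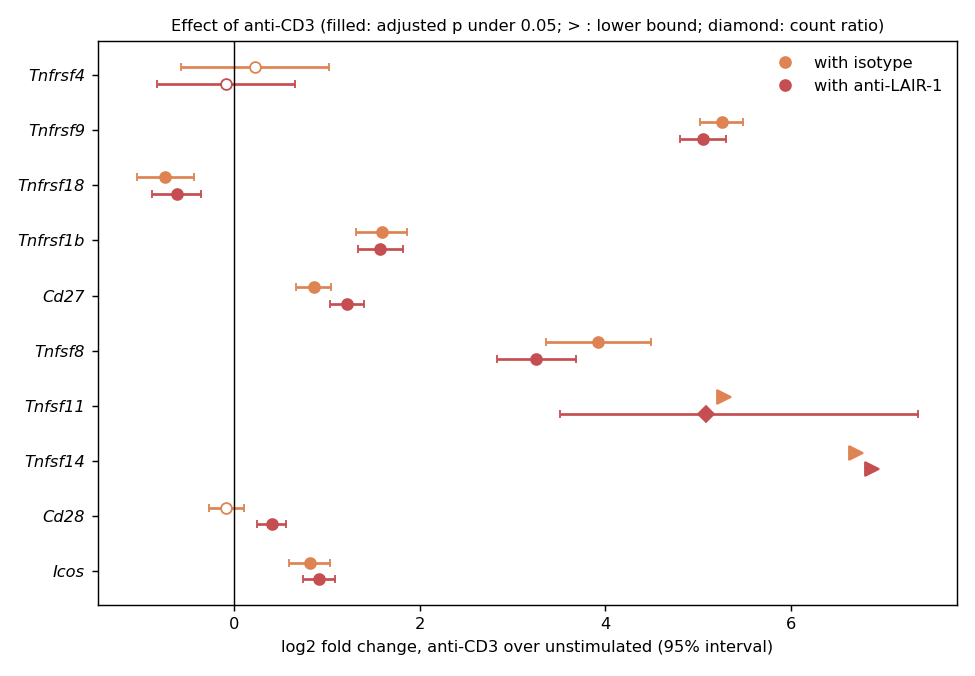
Log2 fold change of anti-CD3 over unstimulated cells (x axis) for each gene, with isotype (orange) or anti-LAIR-1 (red) in both arms; points are edgeR estimates with 95% intervals, triangles lower bounds from a floor of 3 counts, and the diamond a count ratio with its counting interval. Tnfrsf9 and the 3 ligands lie farthest to the right, Tnfrsf18 lies below 0 in both settings, and Cd28 is above 0 with anti-LAIR-1.

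LAIR-1 ligation during anti-CD3 stimulation raised Cd28 and lowered Tnfsf11, and no other member passed the test. These were 2 of 10 members, 1 higher and 1 lower, against 5.76% of 8800 genes (3.9% higher, 1.86% lower). The median log2 fold change was -0.12 over the members and 0.00 over all genes tested, with 3 members above 0 and 7 below. This comparison shares its libraries with both anti-CD3 comparisons, so their values are not independent.

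Cd28 measured 499, 440.4 and 423 CPM in anti-CD3 isotype and 543, 609.8 and 615 CPM in anti-CD3 anti-LAIR-1 cells. Every library with anti-LAIR-1 was above every library without it, and each mouse moved up, by 0.12, 0.47 and 0.54 on the log2 scale. The log2 fold change was 0.38 (SE 0.08, adjusted p = 0.0063), a 1.30-fold difference. The means were 589 ± 40.1 CPM against 454 ± 40.1 CPM (SD, n = 3 each).

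Tnfsf11 measured 16.6, 13.3 and 17.0 CPM with isotype and 9.76, 7.65 and 9.94 CPM with anti-LAIR-1. The groups did not overlap, and the within-mouse differences were -0.74, -0.76 and -0.75. The log2 fold change was -0.77 (SE 0.20, adjusted p = 0.0272), or 1.71-fold lower, from 45 to 105 counts per library. This call was lost in 5 of 14 alternatives: without mouse 2 of the anti-LAIR-1 group (adjusted p = 0.120), without mouse 1 (0.0645) or mouse 3 (0.106) of the isotype group, with DESeq2 (0.0526) and with DESeq2 and a mouse block (0.238).

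The other 2 ligands had values on the same side without passing. Tnfsf14 was 40.3, 44.2 and 41.6 CPM with isotype and 33.1, 36.6 and 23.1 CPM with anti-LAIR-1, groups that did not overlap, and its log2 fold change was -0.43 (95% interval -0.74 to -0.12, adjusted p = 0.101). Tnfsf8 was 44.9, 76.8 and 58.9 CPM against 49.9, 48.3 and 42.5 CPM, groups that overlapped through mouse 1, with a log2 fold change of -0.37 (-0.67 to -0.06, adjusted p = 0.173). Without a filter on low counts both passed (adjusted p = 0.0333 and 0.0361), and without mouse 1 of the isotype group Tnfsf8 did (0.0307).

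Of the receptors, Tnfrsf9 was lower in each anti-LAIR-1 library (1279, 1199.6 and 1145 CPM) than in each isotype library, but by -0.13 (95% interval -0.27 to 0.00, adjusted p = 0.271). Non-overlap of this kind was seen for 4 of 10 members, and for 24.4% of all genes tested. Cd27 was 392, 397 and 417 CPM with isotype and 494, 399.6 and 457 CPM with anti-LAIR-1, overlapping in mouse 2, with a difference of 0.17 (0.00 to 0.33, adjusted p = 0.257). Tnfrsf18 (difference 0.00, -0.24 to 0.24), Icos (0.01, -0.16 to 0.17) and Tnfrsf1b (-0.10, -0.33 to 0.12) had intervals that exclude a change as large as that of Cd28. For Tnfrsf4 the interval was wide, -0.93 to 0.36.

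Several marker levels moved with this comparison. The summed level of 6 naive T cell markers was 411 to 497 CPM in anti-CD3 isotype and 573 to 709 CPM in anti-CD3 anti-LAIR-1 libraries, and that of 8 CD8 T cell markers 2392 to 2587 and 2851 to 3176 CPM. The sum of NK cell markers, which was almost wholly Nkg7, was 170 to 175 CPM and 104 to 114 CPM, with Klrb1c and Tyrobp at or near 0 in all conditions. The regulatory and CD4 T cell list, mostly Ikzf2, was 8.15 to 11.5 and 12.7 to 13.8 CPM, and the B cell list 10.5 to 12.7 and 6.98 to 7.82 CPM. The part of these levels in the Cd28 and Tnfsf11 results was not tested.

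Without anti-CD3, anti-LAIR-1 was followed by no call. None of the 8 members tested passed (0% of 8770 genes did), by edgeR or by DESeq2, and 0 of them had an unadjusted p under 0.05, while 384 of all genes did (4.38%). Cd28 was 445, 445 and 480.0 CPM with isotype and 416, 469 and 435 CPM with anti-LAIR-1, a difference of -0.07 (95% interval -0.25 to 0.10). Cd27 was 223, 197 and 213 CPM against 181, 196 and 196 CPM, groups that just missed each other (9.86% of all genes tested had groups without overlap), with a difference of -0.16 (-0.36 to 0.03). The intervals of Tnfrsf9 (-0.28 to 0.47), Tnfrsf18 (-0.38 to 0.21), Tnfrsf1b (-0.36 to 0.25) and Icos (-0.28 to 0.17) were moderate, and those of Tnfsf8 (-0.57 to 1.25) and Tnfrsf4 (-0.84 to 0.97) wide. Tnfsf14 was at 0 in all 6 libraries, and Tnfsf11 had 0 counts with isotype and 1 count in each anti-LAIR-1 library, which is at the floor of 3 counts over the group. Both were filtered out before testing, and no fold is given.

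**Figure D3:**
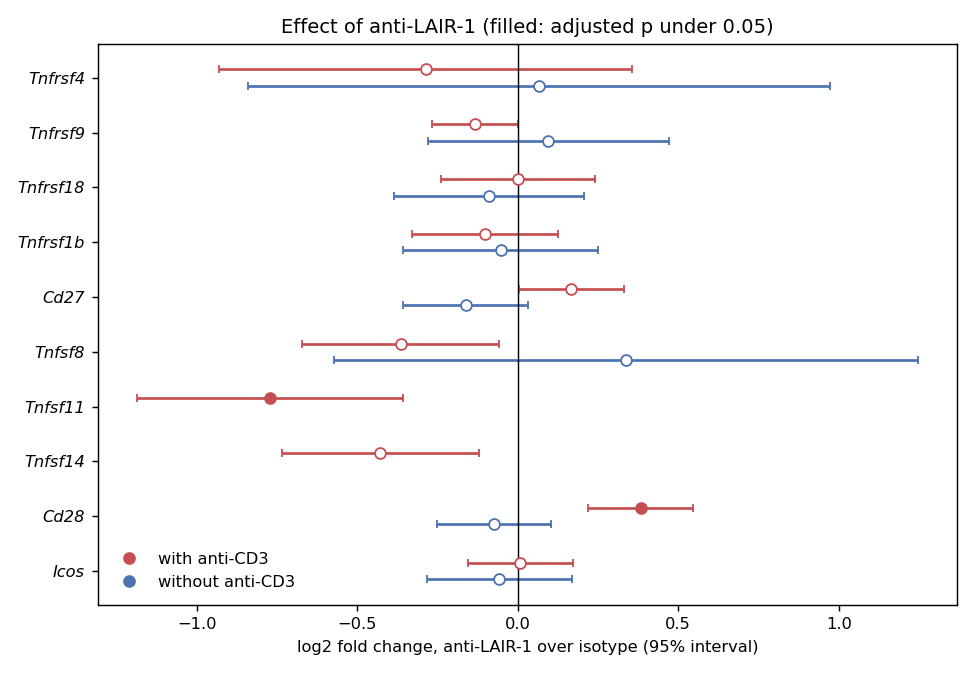
Log2 fold change of anti-LAIR-1 over isotype (x axis, edgeR estimate with 95% interval) for each gene with anti-CD3 (red) and without it (blue), filled where the adjusted p was under 0.05. Only the Cd28 (0.38) and Tnfsf11 (-0.77) points with anti-CD3 are filled, and Tnfsf11 and Tnfsf14 have no point without anti-CD3.

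The difference between the anti-LAIR-1 effect with and without anti-CD3 was tested over all 12 libraries. Cd28 was the 1 of 10 members called, with an interaction of 0.46 (SE 0.12, 95% interval 0.22 to 0.70, adjusted p = 0.0362), where 2.07% of 9223 genes passed (1.82% higher, 0.249% lower). The difference was above 0 in each mouse (0.22, 0.39 and 0.68). It passed in 11 of 19 alternatives and in none of the 8 others, each of which left out 1 library (adjusted p = 0.0677 to 0.111). These libraries were those of mice 2 and 3 in anti-CD3 anti-LAIR-1, anti-CD3 isotype and unstimulated isotype cells, and of mice 1 and 3 in unstimulated anti-LAIR-1 cells. Cd27 had an interaction of 0.33 (0.08 to 0.59, adjusted p = 0.205), Tnfsf8 of -0.70 (-1.59 to 0.19) and Tnfrsf9 of -0.23 (-0.58 to 0.12). Tnfrsf18, Tnfrsf1b, Icos and Tnfrsf4 had estimates of 0.09, -0.04, 0.07 and -0.34, with adjusted p from 0.878 to 0.959. For Tnfsf11 and Tnfsf14 the interaction rests on unstimulated levels at or under the floor and is not given.

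The order of the 4 conditions by mean level took few forms. For Tnfrsf9, Tnfrsf1b, Tnfsf8, Tnfsf14, Icos and Cd27 the unstimulated pair lay below the anti-CD3 pair, and for Tnfrsf18 above it. Within the anti-CD3 pair the libraries overlapped for Tnfrsf18, Tnfrsf1b, Cd27, Tnfsf8 and Icos. For Tnfsf11 the anti-CD3 conditions stood apart from each other and above the unstimulated pair, which was at or under the floor, for Tnfrsf4 no condition stood apart, and for Cd28 the 3 lower conditions overlapped and anti-CD3 anti-LAIR-1 lay above them.

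Over the 12 libraries, which hold both stimulated and unstimulated cells, the gene with the log2 CPM pattern most like each member was found by Pearson's r. It was Hspd1 for Tnfrsf9 (r = 0.999), Pno1 for Tnfsf14 (0.999), Cd6 for Icos (0.996), Dars for Tnfrsf1b (0.995), Eif3g for Tnfsf11 (0.994), Exosc1 for Tnfsf8 (0.993) and Tufm for Cd27 (0.991). For Tnfrsf18 it was 2010002M12Rik (0.985), for Cd28 Plgrkt (0.920) and for Tnfrsf4 Armcx4 (0.895). Among the members, Tnfrsf9 and Tnfsf14 were most alike (0.997), and Cd28 reached at most 0.602, with Cd27.

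The known partners of these proteins were mostly sparse in these libraries or not among the genes counted. The genes of the OX40 ligand (Tnfsf4), the 4-1BB ligand (Tnfsf9), RANK (Tnfrsf11a), HVEM (Tnfrsf14), CD80 and the ICOS ligand (Icosl) had at most 9 counts in any library. The symbols Tnfsf18, Cd70, Tnfrsf8 and Ltbr, partners of GITR, CD27, CD30L and LIGHT, were not among the genes counted. Few or no counts do not show that an RNA was absent from the cells. Cd86, whose product binds CD28, had 6 to 23 counts per library and fell with anti-CD3 and isotype (log2 fold change -1.22, adjusted p = 0.0165). The TNFR2 ligand genes Tnf and Lta were the exception. Tnf rose with anti-CD3 by 5.08 (SE 0.20) and had an anti-LAIR-1 difference of -0.24 in stimulated cells (adjusted p = 0.203). Lta, encoding lymphotoxin alpha, rose by 4.81 (SE 0.25) with anti-CD3, from 1.99, 2.38 and 2.10 CPM to 59.6, 74.2 and 59.7 CPM. It entered that test through the stimulated libraries alone. Stimulated cells with anti-LAIR-1 had lower Lta, at 49.6, 46.4 and 32.1 CPM. The Lta groups did not overlap (log2 fold change -0.58, SE 0.14, adjusted p = 0.0206).

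The wider pathway was described by 6 lists of genes drawn from general knowledge. Their counts are to be read beside the shares of all genes called, 3.9% higher and 1.86% lower for anti-LAIR-1 with anti-CD3 and 35.3% higher and 36.1% lower for anti-CD3 with isotype, where the median of all genes was -0.03. Of 23 other TNF receptors, 10 were tested with anti-CD3 for anti-LAIR-1, and 2 were higher, with a list median of 0.02 beside 0.00 over all genes. These were Tnfrsf25 (DR3; 1.55, SE 0.35, adjusted p = 0.0135) and Tnfrsf26 (0.76, SE 0.21, adjusted p = 0.0375), both of which had fallen with anti-CD3, by -4.11 and -3.14. Under anti-CD3 with isotype, 4 of 9 tested receptors rose and 2 fell (list median 0.26), among them Tnfrsf12a (2.11). Tnfrsf21 rose from 3 counts over the unstimulated isotype group to 208, a ratio of 36.6 (95% counting interval 12.3 to 179). Tnfrsf21 and Tnfrsf12a, the latter at a mean of 1.52 CPM in unstimulated isotype cells, entered the test through the stimulated libraries alone. Both are part of the counts and median of their list. Of 15 other TNF ligands, 5 were tested for anti-LAIR-1 and Lta alone passed, while Tnfsf10 (TRAIL, -2.01) and Ltb (-0.95) fell with anti-CD3, under which 2 of 4 rose and 2 fell (list median 1.93).

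Among 22 TRAF adaptors and members of the alternative NF-κB pathway, 1 of 21 tested passed for anti-LAIR-1. It was Tnip1, a binding partner of the NF-κB inhibitor A20 (0.54, SE 0.14, adjusted p = 0.0266), and the list median was -0.05. Under anti-CD3, 5 of 21 rose and 8 fell (list median 0.08, beside 35.3% and 36.1% of all genes), including Tnip1 (-2.12), Traf4 (1.59), Birc2 (-1.49) and Map3k14 (-1.26), the kinase NIK. DESeq2 called 0 of this list for anti-LAIR-1.

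Of 10 other CD28 and B7 family genes, none of the 5 tested passed for anti-LAIR-1, by edgeR or DESeq2, and 0 had an unadjusted p under 0.05 (list median 0.03). Anti-CD3 raised 4 of 6 (list median 2.63, beside 35.3% of all genes), Pdcd1 (PD-1, 5.98, SE 0.28), Pdcd1lg2 (PD-L2, 4.04), Cd274 (PD-L1, 3.78) and Btla (1.48). It lowered Cd86 and Ctla4 (-1.42, adjusted p = 0.0073), the gene that lies between Cd28 and Icos, at mean levels of 4.73 and 1.86 CPM. DESeq2 did not call these last genes (adjusted p = 0.128 and 0.0643).

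Genes of CD28 signalling moved both ways with anti-LAIR-1. Of 21, 19 were tested, 1 was higher and 3 lower (list median 0.05), beside 3.9% and 1.86% of all genes. Bcl2l1, which encodes the survival protein Bcl-xL, fell from a mean of 73.6 to 40.3 CPM (-0.87, SE 0.10, adjusted p = 6.2e-05), and Malt1, which encodes a paracaspase that feeds NF-κB, by -0.60 (adjusted p = 0.0211). Akt1 was higher by 0.27 (adjusted p = 0.0424, and 0.0508 with DESeq2). Anti-CD3 alone raised 4 of 19 and lowered 9 (list median 0.02, beside 35.3% and 36.1% of all genes), among them Bcl2l1 (3.53), Pik3cd (-2.49) and Pik3r1 (-2.32).

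Of 18 other costimulatory and adhesion receptors, 14 were tested for anti-LAIR-1, 2 were higher and 1 lower (list median -0.02), beside 3.9% and 1.86% of all genes. Cd2, an adhesion receptor, was higher by 0.57 (SE 0.08, adjusted p = 0.00033) and Slamf7 differed by -0.44 (adjusted p = 0.0155). Cd2 is also in the CD8 T cell markers above. With anti-CD3, 6 of 14 rose and 6 fell (list median 0.14, beside 35.3% and 36.1% of all genes), led by Crtam (5.69), Cd7 (-5.20), Slamf7 (5.19) and Slamf1 (5.01). Slamf7, which rose from a mean of 3.62 to 126 CPM, entered this test through the stimulated libraries alone. Without anti-CD3, no gene of the 6 lists was called for anti-LAIR-1 by edgeR or DESeq2. At an unadjusted p under 0.05 there were 3 of 19 tested in the CD28 signalling list, beside 4.38% of all genes tested. The other TNF receptors, other TNF ligands, adaptors, CD28 and B7 family and other costimulatory receptors had 0 of 7, 3, 21, 5 and 13. Among the genes called for the interaction were Tnfrsf25 (1.62), Tnfrsf26 (0.85), Bcl2l1 (-1.21), Akt1 (0.51) and Cd2 (0.57), with adjusted p from 0.0120 to 0.0430.

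**Figure D4:**
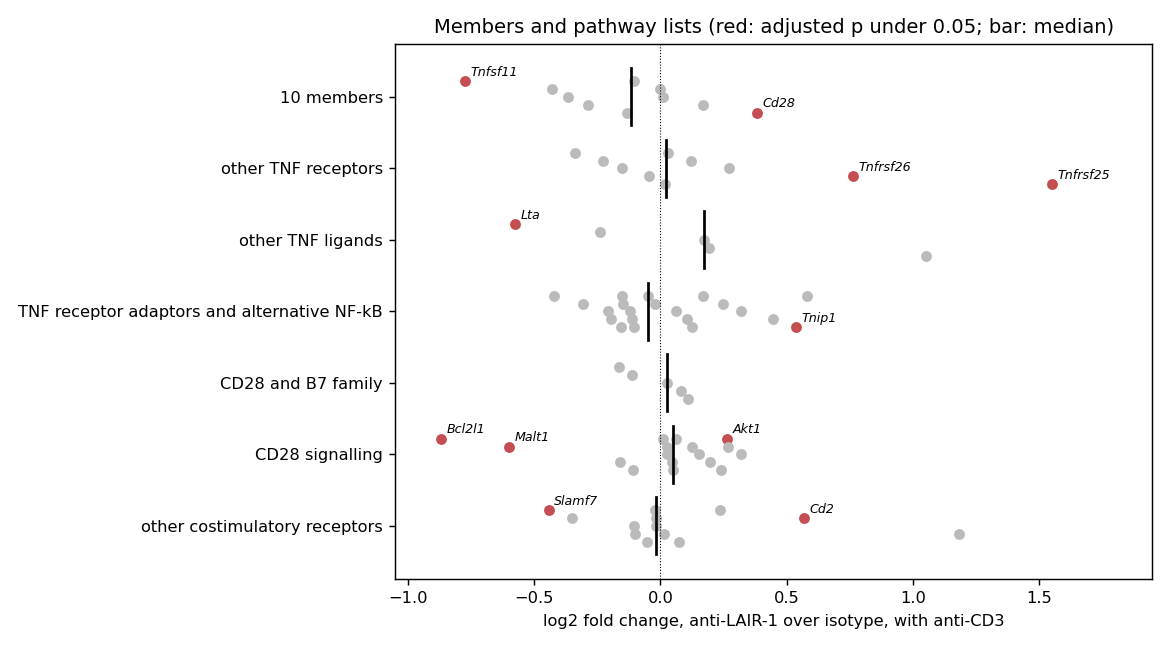
Log2 fold change of anti-LAIR-1 over isotype in anti-CD3 stimulated cells (x axis) for the tested genes of the 10-member family and of 6 pathway lists (y axis), 1 point per gene reported here, red where the adjusted p was under 0.05, with a bar at the median of each whole list. The medians lie between -0.12 and 0.17, and called genes lie on both sides of 0.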

How the data were processed

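Bulk CEL-seq libraries of naive CD8+ T cells (12 libraries, 3 mice, 4 conditions) were analysed from 1 table of raw counts per gene. The authors aligned reads to the mm10 transcriptome with BWA MEM, discarded reads that mapped equally well to several places and deposited the counts without normalization; whether molecular identifiers were collapsed and strand was used is not given in the sources used here. From these counts, edgeR 4.0.16 (quasi-likelihood, TMM, filterByExpr, two-sided, Benjamini-Hochberg over all genes tested, threshold 0.05) was run in R 4.3.3 on the 2 groups of a comparison, and on 12 libraries for the interaction. DESeq2 1.42.0, other scalings and filters, a mouse block and leaving out each library were alternatives. The members and lists were chosen with earlier results of these data known. All members are named; other genes are the label checks, list genes of largest change among those called with 1 direction in 3 mice (up to 4 per list, in the anti-LAIR-1 effect with anti-CD3, the anti-CD3 effect with isotype and the interaction), the gene most like each member, and binding partners chosen after the members' values were seen. On simulated counts with 200 genes changed 2-fold, edgeR recovered 83.5% for the anti-LAIR-1 effect with anti-CD3 (8792 genes), 70.5% without it (8760) and 57.5% for the interaction (8942). Smaller changes, such as those of Cd28 (1.30-fold) and Tnfsf11 (1.71-fold) with anti-LAIR-1 and anti-CD3, were not simulated. Mouse numbers pair the samples because each mouse gave every condition; the deviations of same-mouse libraries from their group means correlated by 0.03 to 0.09 on average. Chi-square per gene between libraries of a group was 3.82 to 5.62, so none was a copy. At these depths 3 counts equal 0.407 to 1.58 CPM. A few genes of the lists are not reported here by name, though counts and medians include them.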

Additional observations from a re-analysis of the deposited data

Results flagged for a closer look

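The effect of anti-LAIR-1 on Cd28 differed between stimulated and unstimulated cells by a test of the difference itself. The log2 fold change was 0.38 with anti-CD3 and -0.07 without it, and the difference was 0.46 (SE 0.12, edgeR's quasi-likelihood test on 12 libraries, adjusted p = 0.0362, higher in 3 of 3 mice). It passed in 11 of 19 settings, with the mouse as a block among them (adjusted p = 0.0378), and was lost when any 1 of 8 of the 12 libraries was left out (adjusted p = 0.0677 to 0.111). Higher naive and CD8 T cell marker levels of the anti-CD3 anti-LAIR-1 libraries moved with it, and their part was not tested.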

How the results depend on the processing

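Of the 10 members, 2 were called for anti-LAIR-1 with anti-CD3. DESeq2 called 1, DESeq2 with the mouse block 1, and edgeR 4 when low counts were not filtered (1 higher, 3 lower), while leaving out 1 library gave 1 to 2. Cd28 was called in all 14 settings run there (adjusted p = 2.5e-05 to 0.0409), Tnfsf11 in 9 of 14. For anti-CD3 with isotype, 8 were called, 5 when at least 10 counts were required in every library, which removed 4 members from the test. For the interaction, 1 was called and 0 to 1 without 1 library. For anti-LAIR-1 without anti-CD3 the count was 0 in all 14 settings (over all genes 0, and 5 when low counts were kept), and for anti-CD3 with anti-LAIR-1 it was 7 to 9. In edgeR, the replicate block by mouse left the counts at 2, 0, 8, 9 and 1 for the comparisons in the order anti-LAIR-1 with and without anti-CD3, anti-CD3 with isotype and with anti-LAIR-1, and interaction, and changed no member's call. Over all genes, the anti-LAIR-1 effect with anti-CD3 gave 507 calls, 224 with DESeq2 and the block, 293 without mouse 2 of the anti-CD3 isotype group, and 315 and 334 without mouse 2 and mouse 3 of the anti-CD3 anti-LAIR-1 group. The interaction gave 191 calls, and 103 without mouse 3 of anti-CD3 anti-LAIR-1, 125 and 110 without mouse 1 and mouse 2 of anti-CD3 isotype, 125 and 121 without mouse 1 and mouse 3 of unstimulated anti-LAIR-1 and 118 without mouse 2 of unstimulated isotype. No result reversed. The cause of these changes was not tested, apart from the filter. Genes with few counts, Tnfrsf4 above all, are limited by depth.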
